A study of Rattus norvegicus with 18 samples.

Results

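Hemoglobin messenger RNA is made mainly by the red cell lineage and can reach a tissue sample with blood left in it, and 4 of the 18 rat dorsal root ganglion libraries of this study held far more of it than the other 14. The split was chosen by the globin share, the summed reads of the 6 alpha and beta globin genes named Hba or Hbb as a percent of all counted reads. Libraries at 0.05% or more were called globin-rich (4 of 18) and those under 0.05% globin-poor (14 of 18). The 4 globin-rich libraries were Sham_solvent replicate 3, Ctrl replicate 2, NPP_herb replicate 3 and Ctrl_solvent replicate 2.

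The study made a rat model of neuropathic pain and asked how Shentong Zhuyu Decoction, a mixture of 12 herbal and animal ingredients, acts on the ganglion. Its groups of 3 libraries each were NPP_herb, NPP_solvent, Sham_herb, Sham_solvent, Ctrl_solvent and Ctrl, with NPP, Sham and Ctrl given as disease states and herb and solvent as treatments. Strain, age, sex, dose, time, the making of the pain model and any pooling of ganglia were left unstated by the sources used here. Nothing in the labels ties each library to its own animal, so a p-value here reflects how far libraries varied, and that variation may be technical.

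Dorsal root ganglia hold the cell bodies of sensory neurons wrapped in satellite glia, and their capillaries are leaky compared with those of the brain. Mature mammalian red cells have no nucleus but keep some globin messenger RNA, and reticulocytes, the cells just before them, still hold transcripts for heme synthesis and for membrane proteins. Granulocytes are white cells filled with granule proteins, and much of the messenger RNA for those proteins is made in their precursors in the bone marrow, which in a rat also fills the vertebrae around the ganglia.

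The 6 globin genes carried 24291 reads in Sham_solvent replicate 3, which was 0.0815% of its reads (exact binomial 95% interval 0.0805 to 0.0826%). They carried 0.0763% in Ctrl replicate 2, 0.0750% in NPP_herb replicate 3 and 0.0743% in Ctrl_solvent replicate 2. In the 14 globin-poor libraries the share ran from 0.000455% to 0.0186%, with a median of 0.00592%. These values chose the groups and get no test. The 4 globin-rich libraries were within 1.10-fold of each other, the lowest of them stood 4.0-fold above the highest globin-poor library (NPP_herb replicate 2), and the globin-poor libraries spanned 40.8-fold. The globin-poor end was Ctrl_solvent replicate 3 with 100 globin reads (exact 95% interval 0.000370 to 0.000553%). Intervals cover counting error only.

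**Figure D1:**
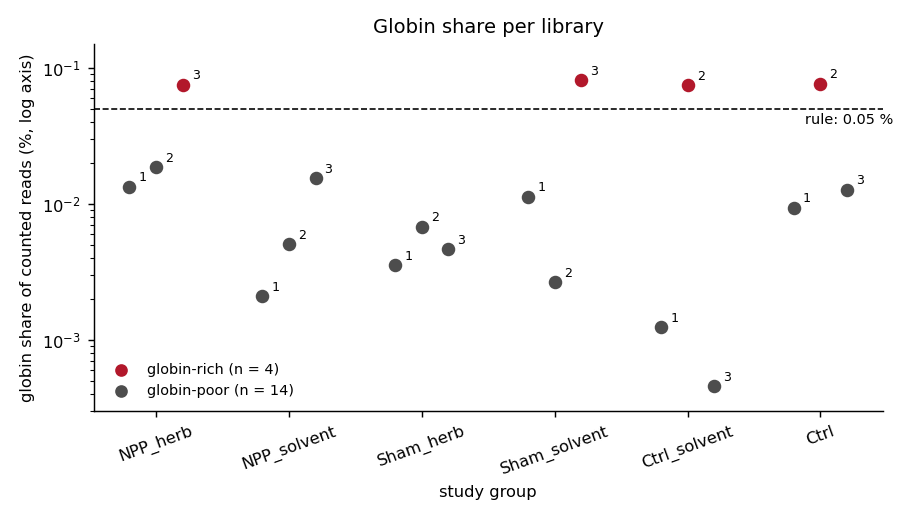
Globin share of all counted reads (percent, log axis) in each library, by study group. Red points are the 4 globin-rich libraries, grey points the 14 globin-poor ones, the digit is the replicate number and the dashed line is the 0.05% of the rule. The red points lie between 0.0743 and 0.0815% in 4 of the 6 groups, and no grey point passes 0.0186%.

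Hba-a1, an alpha globin gene on chromosome 10, had 314.8, 308.9, 301.4 and 299.4 CPM (reads scaled to library size with TMM factors) in the globin-rich libraries Sham_solvent 3, Ctrl 2, NPP_herb 3 and Ctrl_solvent 2. Its globin-poor levels ran from 1.40 to 78.7 CPM with a median of 23.3 CPM. Hbb, a beta globin gene on chromosome 1, had 296.0, 233.8, 255.5 and 247.5 CPM in the same 4 libraries, against 1.44 to 57.6 CPM (median 20.5) in the globin-poor ones. No globin-poor library reached a globin-rich one for either gene. Alpha globin genes gave 57.1 to 62.9% of the globin reads in globin-rich libraries and 55.4 to 68.7% in globin-poor ones. Per length, Hba-a1 stood above Hbb in Sham_solvent replicate 3, at 501.9 against 424.0 FPKM (the deposited level scaled to gene length and library size), and near-identical globin copies may share reads in each of these values. The ganglion markers fixed for the check were read in every library. The sensory neuron genes Prph (1729 to 3172 CPM) and Scn10a (206.4 to 466.8 CPM) had no library at 0.

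The first question was which genes other than globins differed between globin-rich and globin-poor libraries. Of 16759 genes tested, 22 (0.131%) were higher and 2 (0.0119%) lower in the globin-rich libraries by edgeR's quasi-likelihood test at a Benjamini-Hochberg adjusted p under 0.05. The low-count filter was given this split, so reads in the 4 globin-rich libraries alone could bring a gene into the test. Hemgn, Epx, Prg3 and Rnase2 entered that way, so their p-values and lack of overlap are description and no independent support. Most of the 22 are known from blood or marrow cells, among them red cell genes (Slc4a1, Alas2, Hemgn, Nfe2), eosinophil genes (Prg2, Epx, Prg3, Rnase2, Alox15), neutrophil genes (Mmp8, Fcnb, Retnlg, Ngp, Mmp9), the mast cell protease gene Mcpt9 and the B cell gene Cd79a. In bulk tissue, more cells of a type and more RNA per cell cannot be told apart. The 4 globin-rich libraries all exceeded the 14 globin-poor ones in 17 of the 22, while over all genes tested 25 (0.149%) had every globin-rich library above every globin-poor one and 11 (0.0656%) had every one below.

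The promoters of 3 genes from that set are shown because red cell and eosinophil genes moved together and both lineages are known to use GATA factors, whose binding word was searched for. Each is the RefSeq sequence on GRCr8 from 250 bases before to 50 bases after the annotated start, written 5′ to 3′, and capitals mark matches to AGATAA, to TGATAA, to AGATAG or to TGATAG on either strand.
Alas2, chrX:22895200-22895499, plus strand: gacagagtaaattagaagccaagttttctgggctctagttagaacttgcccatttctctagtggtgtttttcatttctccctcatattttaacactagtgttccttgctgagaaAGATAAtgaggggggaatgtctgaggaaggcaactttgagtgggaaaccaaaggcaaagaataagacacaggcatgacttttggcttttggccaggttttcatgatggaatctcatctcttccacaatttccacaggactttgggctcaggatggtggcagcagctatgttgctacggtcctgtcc
Hemgn, chr5:65485772-65486071, minus strand: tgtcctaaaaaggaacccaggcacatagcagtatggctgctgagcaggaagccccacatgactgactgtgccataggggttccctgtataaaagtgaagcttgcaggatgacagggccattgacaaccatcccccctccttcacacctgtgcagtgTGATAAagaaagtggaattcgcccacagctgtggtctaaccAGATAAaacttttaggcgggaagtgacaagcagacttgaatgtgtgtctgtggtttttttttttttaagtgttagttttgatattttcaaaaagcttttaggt
Prg3, chr3:90478904-90479203, plus strand: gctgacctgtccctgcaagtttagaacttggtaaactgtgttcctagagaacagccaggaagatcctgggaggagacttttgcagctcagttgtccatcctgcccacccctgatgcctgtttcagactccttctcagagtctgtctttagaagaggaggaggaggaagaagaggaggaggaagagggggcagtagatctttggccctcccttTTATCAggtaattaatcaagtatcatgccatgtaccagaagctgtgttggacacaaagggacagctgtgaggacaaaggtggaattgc
Alas2 held 1 match, Hemgn 2 at the start shown and none at its other start, and Prg3 1. The eosinophil genes Epx and Rnase2, searched but not shown, held none. The 3 shown are thus the red cell and eosinophil genes with a match. Over the called genes higher in globin-rich libraries that had a promoter to search, 5 of 18 promoters (27.8%) held such a word. Of all 33469 promoters of the same length 30.3% did. Hemgn and Rbm38 entered with more than 1 start each. Some called genes had no promoter to search, among them Slc4a1, Prg2, Nfe2, Alox15 and Mmp9. The share is near that of all promoters, a match is no proof of binding, and no match says only that these letters are not in this window.

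Slc4a1, the band 3 anion exchanger of the red cell membrane, had the smallest adjusted p of all genes. It had 2.21 CPM in Sham_solvent 3, 5.41 in Ctrl 2, 6.94 in NPP_herb 3 and 3.66 in Ctrl_solvent 2, against 0.0874 to 0.699 CPM (median 0.392) in globin-poor libraries. All 4 globin-rich libraries were above all others, and the log2 fold change was 3.55 ± 0.34 (SE, edgeR quasi-likelihood, adjusted p = 1.20e-05). Alas2, the erythroid enzyme of the first step of heme synthesis, had 6.07, 6.96, 8.61 and 7.61 CPM in Sham_solvent 3, Ctrl 2, NPP_herb 3 and Ctrl_solvent 2. The globin-poor libraries had 0 to 1.77 CPM (median 0.509), with 3 at 0. The groups did not overlap (log2 fold change 3.39 ± 0.60, SE, edgeR adjusted p = 0.0230), yet the call was lost without Ctrl 2, Ctrl_solvent 2, NPP_herb 3, Sham_herb 2 or Sham_solvent 3, with adjusted p up to 0.0876 in edgeR. Hemgn, a nuclear protein gene of red cell precursors, rose by 3.34 ± 0.60 (log2, SE) with an edgeR adjusted p of 0.0212. Nfe2, a transcription factor gene of red cell and platelet precursors, rose by 1.98 ± 0.35 (edgeR adjusted p = 0.0193). Hemgn was highest in NPP_herb 3 at 2.33 CPM, and Nfe2 in Ctrl 2 at 2.66 CPM. Hemgn passed the low-count filter through its globin-rich levels, so its p-value is description only. Hemgn lost its call without NPP_herb 3 or Sham_solvent 3 (adjusted p up to 0.197 in edgeR), and Nfe2 without Ctrl 2 or Sham_solvent 3 (up to 0.137).

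Of the 29 tested members of the red cell list, 4 were called higher and none lower. Their log2 fold change was above 0 in 22 of 29, against 7970 of 16759 over all genes tested, and their median was 0.07, against -0.01 over all genes tested. Members that did not pass include genes read at high levels in every library. Ank1, an ankyrin gene, had 203.4 to 296.6 CPM in globin-rich and 195.5 to 260.5 CPM in globin-poor libraries. Ahsp, which encodes the stabilizing partner of free alpha globin, had 2.56 to 5.07 CPM in globin-rich and 1.02 to 4.13 CPM in globin-poor libraries, and its groups overlapped (edgeR adjusted p = 0.114). Genes for handling heme and iron gave no call among 18 tested (median 0.11).

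Prg2, the major basic protein of eosinophil granules, had 11.9 CPM in Sham_solvent 3, 15.1 in Ctrl 2, 7.63 in NPP_herb 3 and 6.54 in Ctrl_solvent 2. Globin-poor libraries had 1.06 to 4.09 CPM (median 2.35). All globin-rich libraries were above all globin-poor ones, and the log2 fold change was 2.15 ± 0.23 (SE, edgeR adjusted p = 6.35e-05). Epx, eosinophil peroxidase, had 1.97, 3.58, 2.45 and 1.70 CPM in globin-rich libraries, against 0 to 0.518 CPM (median 0.0242) in globin-poor ones, of which 6 had no read. Its groups did not overlap (log2 fold change 4.33 ± 0.62, SE, edgeR adjusted p = 0.00188). Epx passed the low-count filter through its globin-rich levels, so these values are description only.

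Prg3, a close relative of Prg2, rose by 3.83 ± 0.56 and Rnase2, named for an eosinophil ribonuclease in humans, by 3.13 ± 0.52 (log2, SE), with edgeR adjusted p of 0.00188 and 0.00862. Alox15, a lipoxygenase gene that human eosinophils express highly, rose by 2.22 ± 0.36 (edgeR adjusted p = 0.00625). In all 3 genes every globin-rich library was above every globin-poor one, and only Rnase2 of the 3 lost its call when 1 library was left out (Sham_solvent 3, edgeR adjusted p = 0.0523). Prg3 and Rnase2 passed the low-count filter through their globin-rich levels, with at most 0.4225 and 0.269 CPM in globin-poor libraries. Their values are description only. Of 9 tested genes in a list of eosinophil and basophil genes, made after values were seen, 5 were called higher, and the median log2 fold change was 2.22. That median was partly fixed in advance, since the called genes were known when the list was made. The summed level of that list was 14.7 to 35.6 CPM in globin-rich and 3.79 to 12.2 CPM in globin-poor libraries. Its defining receptor genes were near 0: Ccr3 had at most 0.145 CPM in globin-rich and 0.269 CPM in globin-poor libraries, and Il5ra at most 0.483 and 0.164 CPM.

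**Figure D2:**
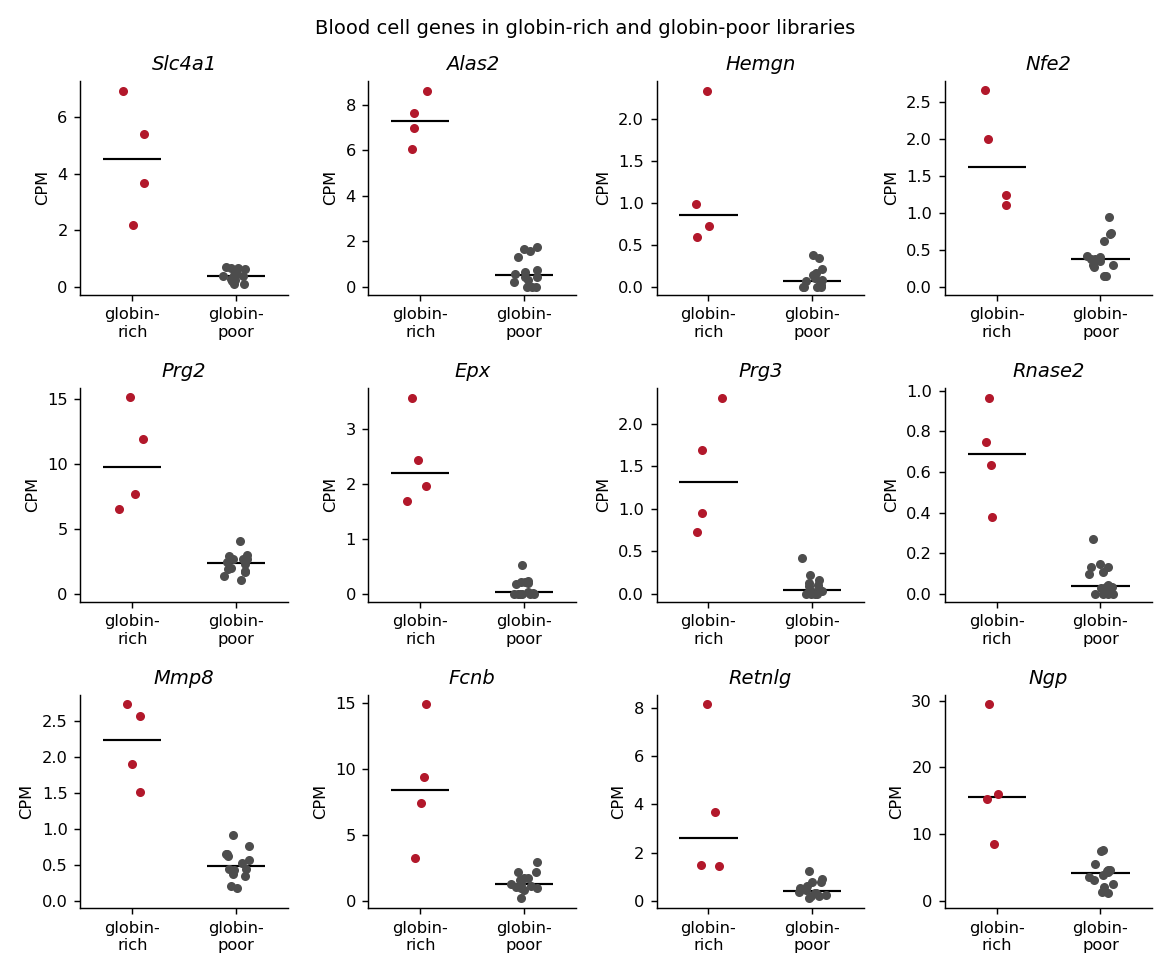
Level (CPM) of 12 blood cell genes called higher in globin-rich libraries, with 1 point per library and a line at the median, globin-rich (n = 4) left and globin-poor (n = 14) right. The top row holds red cell genes, the middle row eosinophil genes and the bottom row neutrophil genes. In all 12 the red points lie above every grey point, such as Slc4a1 with at least 2.21 against at most 0.699 CPM. Hemgn, Epx, Prg3 and Rnase2 entered the test through their globin-rich levels.

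Of 23 tested neutrophil genes 4 passed, all higher, and 19 did not. The log2 fold change was above 0 in 20 of 23 (median 1.19), against 7970 of 16759 over all genes tested, and the list's summed level, 95.8 to 535.7 CPM in globin-rich and 50.6 to 235.1 CPM in globin-poor libraries, overlapped. Mmp8, neutrophil collagenase, had 1.90, 2.56, 2.73 and 1.51 CPM in Sham_solvent 3, Ctrl 2, NPP_herb 3 and Ctrl_solvent 2, against 0.168 to 0.915 CPM (median 0.480) in globin-poor libraries. The groups did not overlap (log2 fold change 2.11 ± 0.28, SE, edgeR adjusted p = 0.00137). Ngp, neutrophilic granule protein, had 15.3, 29.5, 15.9 and 8.47 CPM in globin-rich libraries, against 1.19 to 7.63 CPM (median 4.07) in globin-poor ones. Its groups did not overlap either (log2 fold change 2.12 ± 0.36, SE, edgeR adjusted p = 0.0170), and the call was lost without Ctrl 2, NPP_herb 3 or Sham_solvent 3 (edgeR adjusted p up to 0.133).

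Retnlg, a resistin-like gene of mouse neutrophils, rose by 2.90 ± 0.44 (log2, SE, edgeR adjusted p = 0.00382) and Mmp9, gelatinase B, by 1.53 ± 0.30 (edgeR adjusted p = 0.0395). Retnlg lost its call without Ctrl 2 (edgeR adjusted p = 0.0781), and Mmp9, whose groups overlapped, passed in 6 of 18 fits that each left out 1 library (adjusted p up to 0.446). Fcnb, the lectin ficolin B of maturing myeloid cells in mice, had 9.40, 14.9, 7.40 and 3.26 CPM in globin-rich libraries, against 0.207 to 2.96 CPM (median 1.24) in globin-poor ones. The lowest globin-rich level, in Ctrl_solvent 2, lay just above the highest globin-poor one (log2 fold change 2.63 ± 0.36, SE, edgeR adjusted p = 0.00186).

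The most abundant neutrophil markers did not pass. S100a8, a subunit of calprotectin, had 58.3, 127.3, 34.8 and 21.3 CPM in globin-rich libraries, against 11.2 to 57.3 CPM (median 22.7) in globin-poor ones. Ctrl_solvent 2 was below the globin-poor median, so the groups overlapped (edgeR adjusted p = 0.609). Ctrl replicate 2 was the highest of all 18 libraries in 17 of 23 neutrophil genes. Its levels were 13.8 CPM for Mpo, the myeloperoxidase of immature granulocytes, and 34.1 CPM for the neutrophil defensin gene Np4. Without Ctrl 2 the neutrophil median was 0.53, with 1 called. In a list of granulocyte precursor genes, made after values were seen, 3 of 10 tested genes were called higher and 7 did not pass. All 10 had a log2 fold change above 0 (median 1.87), against 8 of 10 without Ctrl 2 (median 0.97, 2 called). The list's summed level overlapped, at 28.1 to 115.9 CPM in globin-rich and 10.9 to 36.9 CPM in globin-poor libraries.

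Mcpt9, a mast cell protease gene, had 1.29, 4.98, 1.07 and 0.404 CPM in globin-rich libraries, against 0.0326 to 0.753 CPM (median 0.249) in globin-poor ones. Its groups overlapped at Ctrl_solvent 2, and the call (log2 fold change 2.85 ± 0.56, SE, edgeR adjusted p = 0.0395) held in 5 of 18 fits that each left out 1 library, with an adjusted p of 0.677 without Ctrl 2. In a mast cell list made after values were seen, 1 of 9 tested genes was called, and 7 of 9 had a log2 fold change above 0 (median 0.43), against 4 of 9 without Ctrl 2 (median -0.06, none called). Cma1, the chymase gene, had 0.404 to 1.02 CPM in globin-rich and 0 to 1.85 CPM in globin-poor libraries, and Cpa3, the carboxypeptidase gene, 0.237 to 0.580 and 0 to 3.62 CPM.

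Cd79a, a chain of the B cell receptor, had 4.48 CPM in Sham_solvent 3, 2.32 in Ctrl 2, 2.50 in NPP_herb 3 and 2.18 in Ctrl_solvent 2, against 0.336 to 1.67 CPM (median 0.971) in globin-poor libraries. The groups did not overlap (log2 fold change 1.45 ± 0.28, SE, edgeR adjusted p = 0.0353), but the call held in 7 of 18 fits without 1 library and had an adjusted p of 0.338 without Sham_solvent 3. Of 6 tested B cell genes 1 was called and 5 did not pass, and the log2 fold change was above 0 in all 6 (median 0.79). Fcmr, an IgM receptor gene, had 3.45 to 5.27 CPM in globin-rich and 1.18 to 6.03 CPM in globin-poor libraries, with overlap. Their list summed to 11.5 to 17.3 CPM in globin-rich and 4.70 to 9.59 CPM in globin-poor libraries. Platelet genes gave 1 call among 15 tested, Nfe2, and a median of 0.14. The platelet chemokine gene Pf4 had 6.21, 2.08, 2.07 and 2.96 CPM in globin-rich libraries and 0.813 to 2.70 CPM in globin-poor ones, with overlap, and Ppbp and Gp9 had no read in 10 of 18 libraries each.

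The remaining white cell lists had no call. T and NK cell genes had a median log2 fold change of -0.68 over 12 tested, monocyte genes -0.16 over 13 and resident macrophage genes -0.35 over 20. All 3 medians turned sign when the 8 globin-poor libraries with Isg15 at 10 CPM or more were left out, a choice made after seeing the data, to 0.33, 0.38 and 0.29 in the same order, again with no call. Endothelial genes, a measure of vessel in the tissue, had a median of 0.04 over 19 with no call, and mural cell genes -0.09 over 15 with no call. Sensory neuron genes had a median of 0.08 and no call among 22.

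**Figure D3:**
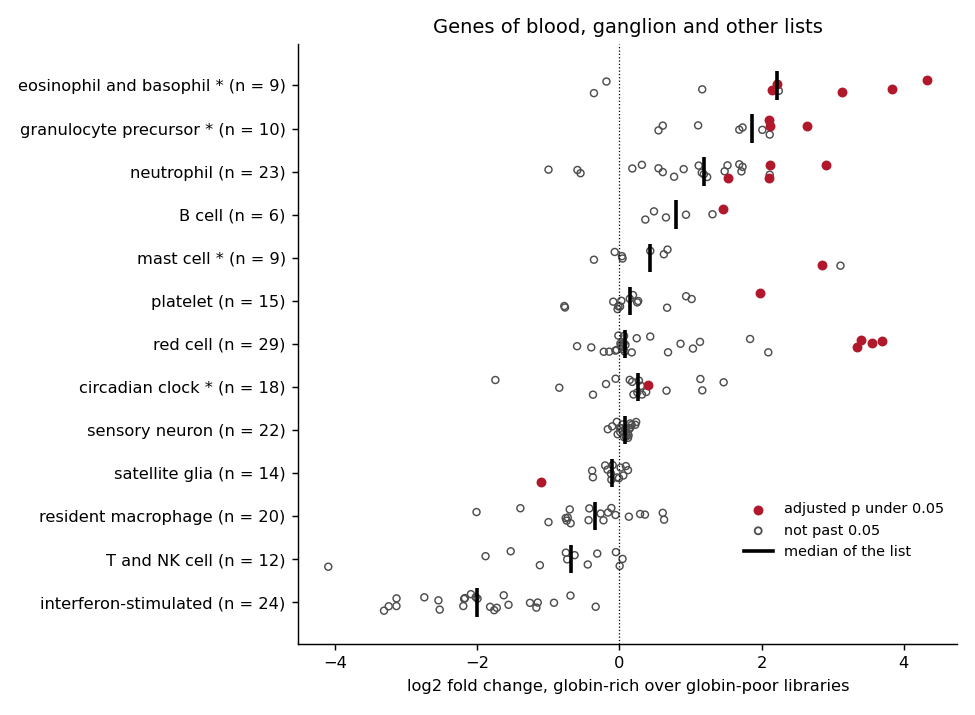
Log2 fold change, globin-rich over globin-poor libraries, of each tested gene in 13 lists. Red points passed an adjusted p of 0.05 in edgeR, open points did not, black bars are list medians and an asterisk marks lists made after values were seen. Medians run from 2.22 for eosinophil and basophil genes to -2.01 for interferon-stimulated genes, of which none passed. The eosinophil and basophil list holds 5 called genes, so its median was partly fixed in advance.

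Other called genes are not known as blood cell genes. Tef, a transcription factor gene of the circadian output, had 99.8, 88.9, 89.7 and 105.4 CPM in Sham_solvent 3, Ctrl 2, NPP_herb 3 and Ctrl_solvent 2, against 58.7 to 82.1 CPM (median 73.4) in globin-poor libraries. The groups did not overlap (log2 fold change 0.40 ± 0.07, SE, edgeR adjusted p = 0.0230), with the call lost without Ctrl_solvent 2 or Sham_solvent 3 (edgeR adjusted p up to 0.180). Dbp, its relative, had 35.1, 62.6, 42.8 and 77.8 CPM in globin-rich and 14.7 to 40.9 CPM in globin-poor libraries and did not pass (edgeR adjusted p = 0.0713). Arntl, the clock activator BMAL1, had 5.25 to 7.01 CPM in globin-rich and 5.88 to 17.3 CPM in globin-poor libraries (edgeR adjusted p = 0.264). In a clock list made after values were seen, 1 of 18 tested genes was called. The log2 fold change was above 0 in 13 of 18 (median 0.26), against 7970 of 16759 over all genes tested. The list summed to 438.9 to 512.5 CPM in globin-rich and 337.8 to 415.7 CPM in globin-poor libraries, without overlap. The hour at which tissue was collected is unstated, and its part in these values was not tested.

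Fabp7, the fatty acid binding protein of satellite glia, was lower in globin-rich libraries, with 33.2, 46.3, 30.5 and 23.7 CPM in the same 4, against 45.4 to 109.7 CPM (median 70.2) in globin-poor ones. The groups overlapped only at NPP_solvent 3, a globin-poor library below Ctrl 2 (log2 fold change -1.11 ± 0.22, SE, edgeR adjusted p = 0.0419), and the call held in 5 of 18 fits without 1 library. The other 13 satellite glia genes gave no call: Kcnj10, a glial potassium channel, had 117.6 to 166.4 CPM in globin-rich and 95.5 to 151.6 CPM in globin-poor libraries. Nat8f3, of the N-acetyltransferase 8 family, rose by 1.84 ± 0.27 (log2, SE, edgeR adjusted p = 0.00188), with 18.1, 12.4 and 13.3 CPM in Sham_solvent 3, NPP_herb 3 and Ctrl_solvent 2. Ctrl 2 had 3.04 CPM, inside the globin-poor range of 2.08 to 5.20 CPM, and similar family members may share its reads.

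The called genes beyond the naming rule, named after their values were seen, were Prg3 and Rnase2 above, Fcna, Rbm38 and Cys1, which were higher, and the uncharacterized LOC102553524, which was lower. Fcna, ficolin A, rose by 1.43 ± 0.28, Rbm38, an RNA-binding protein gene, by 1.07 ± 0.21 and Cys1, a cilium protein gene, by 0.74 ± 0.15 (log2, SE), with edgeR adjusted p of 0.0417, 0.0395 and 0.0419. They held their calls in 5, 7 and 2 of 18 fits that each left out 1 library. The next genes in the lower direction, Akr1c19, Sat1, Npas2 and Plat, did not pass (edgeR adjusted p from 0.0772 to 0.264).

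With the 6 study groups as terms in the fit, so that each globin-rich library was set against the other 2 of its group, 7 genes passed, among them Slc4a1 (log2 fold change 3.25), Prg2 (2.06), Prg3, Mmp8 (2.19) and Tef (0.41) higher and Fabp7 (-1.31) lower. Medians of the eosinophil and neutrophil lists were then 2.08 and 0.81. The eosinophil and basophil list was made after values were seen and holds 5 called genes, so its median was partly fixed in advance.

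A second fit followed the globin share itself over all 18 libraries and gave the log2 change of a gene per doubling of the share. By edgeR's quasi-likelihood test 64 genes (0.382%) went up and 335 (2.0%) went down with the share at an adjusted p under 0.05. Red cell genes led the higher side: Alas2 changed by 1.09 ± 0.07 (log2 per doubling, SE, edgeR adjusted p = 1.53e-08) and Slc4a1 by 0.77 ± 0.09 (0.000344). A slope of 1 would be a level in proportion to the globin share. Of the red cell list 7 of 29 were called up and 1 down. Epx (1.02 ± 0.17) and Prg2 (0.37 ± 0.07) were called too, as was Ngp (0.42 ± 0.08). Other genes named by the rule were Igf1, a growth factor gene, at 0.20 ± 0.03, Lamc3, a laminin chain, at 0.18 ± 0.03, Mfap4, an elastic fibre protein, at 0.46 ± 0.07, and Serpinh1, the collagen chaperone, at 0.10 ± 0.02. None of these 4 was among the 12 genes called without the globin-poor libraries of high Isg15. With study groups as terms, Igf1 and Serpinh1 still passed (edgeR adjusted p of 0.0348 and 0.0426). Lamc3 and Mfap4 did not (edgeR adjusted p of 0.0778 and 0.0650). Among clock genes, Tef (0.09 per doubling), Dbp (0.27) and Arntl (-0.20) passed with study groups as terms, and the rest did not. Their edgeR adjusted p were 0.0436, 0.0225 and 0.0426. Of 20 tested fibroblast and matrix genes 1 was called up in the main slope (median 0.02 per doubling).

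The third fit took only the 14 globin-poor libraries, which the second fit also holds, and 47 genes (0.28%) went up and 453 (2.7%) went down with the share. Alas2 was the one gene called in the globin-rich comparison that passed here, at 1.29 per doubling (log2, edgeR adjusted p = 0.000702). Slc4a1 had 0.26 (edgeR adjusted p = 0.585). Prg2 had 0.04, Epx 0.25 and Mmp8 -0.09, none of which passed (edgeR adjusted p of 0.925, 0.874 and 0.867). The neutrophil median was -0.08 per doubling and the B cell median -0.08, against 0.00 over all genes tested. In the plot of genes against the globin share, Alas2 climbs through the whole range while Prg2 is high only to the right of the line.

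**Figure D4:**
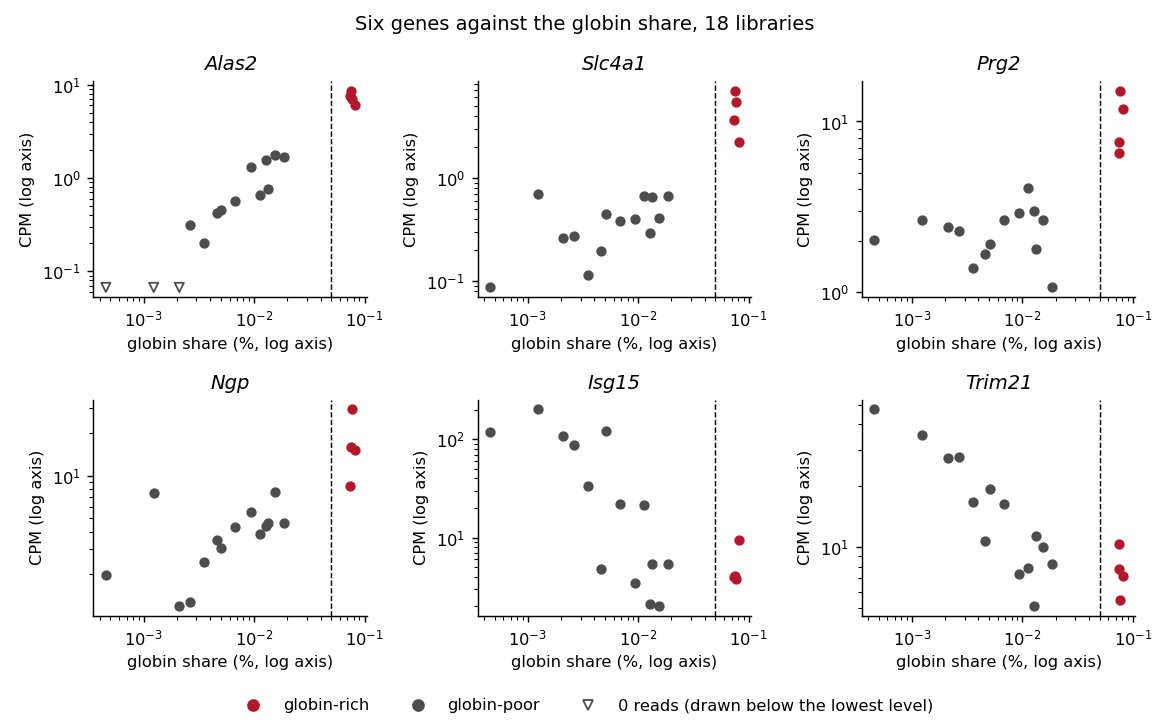
Level (CPM, log axis) of 6 genes against the globin share (percent, log axis) in 18 libraries, red for globin-rich and grey for globin-poor, with the 0.05% line dashed and open triangles for libraries without a read. Alas2 follows the share across both groups, from no read in 3 libraries to 8.61 CPM, while Isg15 and Trim21 have their high values at low shares.

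Interferon-stimulated genes, which cells switch on in response to interferons, were part of the lower side of both slopes. Of 24 tested interferon-stimulated genes 22 were called down with the globin share over all libraries, and 22 over globin-poor libraries, with medians of -0.55 and -0.83 (log2 per doubling). Between globin-rich and globin-poor libraries none of the 24 passed, although their median was -2.01. The count at an unadjusted p under 0.05 over all genes was 481 higher and 596 lower in that comparison. Isg15, a ubiquitin-like interferon target, had 9.43, 3.77, 4.03 and 3.93 CPM in globin-rich libraries, against 2.02 to 202.0 CPM (median 21.9) in globin-poor ones. The globin-rich libraries lay at the low end and the groups overlapped.

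The 2 libraries with the least globin, Ctrl_solvent 3 and Ctrl_solvent 1, had Isg15 levels of 118.5 and 202.0 CPM. With the study groups as terms the globin-poor slope called no gene by edgeR, with 735 genes at an unadjusted p under 0.05, and the slope over all libraries called 33, of which 14 were higher and 19 lower. Without Ctrl_solvent 3 the slope over all libraries called 174 genes in place of 399. A globin-poor fit without Ctrl_solvent 3 called 185, and one without Ctrl_solvent 1 called 305, in place of 500. When the 8 globin-poor libraries with Isg15 at 10 CPM or more were left out, a choice made on the values, the globin-rich comparison called 8 genes, all higher. Among them were Slc4a1, Alas2, Prg2, Fcnb, Mmp8, Retnlg and the immunoglobulin gene Ighv. No gene was called lower in that fit, and the choice of libraries itself fixes the interferon genes there. The 8 libraries left out had globin shares of 0.000455 to 0.0113%, and the 6 globin-poor libraries kept had 0.00462 to 0.0186%. The part of interferon gene levels in the slopes beyond this was not tested.

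Depth and RNA make-up were compared over 6 measures, and none passed after adjustment. Total counts were 20479014 to 36885633 reads in globin-rich and 18170925 to 50289652 reads in globin-poor libraries. The mitochondrial share was 9.28 ± 0.981% in globin-rich (SD, n = 4) and 10.5 ± 1.01% in globin-poor libraries (SD, n = 14), with a two-sided exact permutation p of 0.0376 and 0.226 after Benjamini-Hochberg adjustment. The Y-linked gene Eif2s3y had under 10 reads in Ctrl 2, which is globin-rich, and in Ctrl 3, which is globin-poor. Without these 2 libraries the globin-rich comparison called 22 genes, 15 higher and 7 lower.

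The last question was how much the globin-rich libraries move the study's own comparisons. Values are list medians with no test, with all libraries and then without the 4 globin-rich ones, an alternative added after seeing the data. The granulocyte precursor list and the eosinophil and basophil list were made after values were seen. They hold 3 and 5 genes called higher in these same 4 libraries, and the neutrophil list holds 4. Ctrl 2, 1 of the 4 libraries, was also the highest of all 18 in 17 of 23 neutrophil genes. A shift of these 3 medians without the 4 libraries was therefore partly fixed in advance. In NPP_herb against NPP_solvent the neutrophil median was 1.04 and then 0.62, that of granulocyte precursor genes 1.10 and then 0.27, and that of eosinophil and basophil genes 0.63 and then -0.82. In Ctrl_solvent against Ctrl the neutrophil median was -0.85 and then 0.76, and the granulocyte precursor median -1.17 and then 0.69, and that of eosinophil and basophil genes -0.59 and then 0.05, so all 3 turned sign when 1 library left each group. The interferon-stimulated median was -1.83 and then -1.90 in NPP_herb against NPP_solvent, and 3.20 and then 3.81 in Ctrl_solvent against Ctrl. It was 0.41 and then 0.07 in NPP_solvent against Sham_solvent, with 23 and then 15 of 24 genes above 0, and -0.43 and then -0.84 in Sham_herb against Sham_solvent. Medians over all genes tested stayed within about 0.01 of 0.

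NPP_solvent against Sham_solvent gave an eosinophil and basophil median of -0.67 with all libraries and -0.01 without Sham_solvent 3, and a neutrophil median of -0.93 and then -0.67. In Sham_herb against Sham_solvent the eosinophil and basophil median was -1.68 and then -0.87, and the granulocyte precursor median -1.07 and then -0.47. These 2 comparisons share the Sham_solvent libraries, and the first shares the NPP_solvent libraries with NPP_herb against NPP_solvent.

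**Figure D5:**
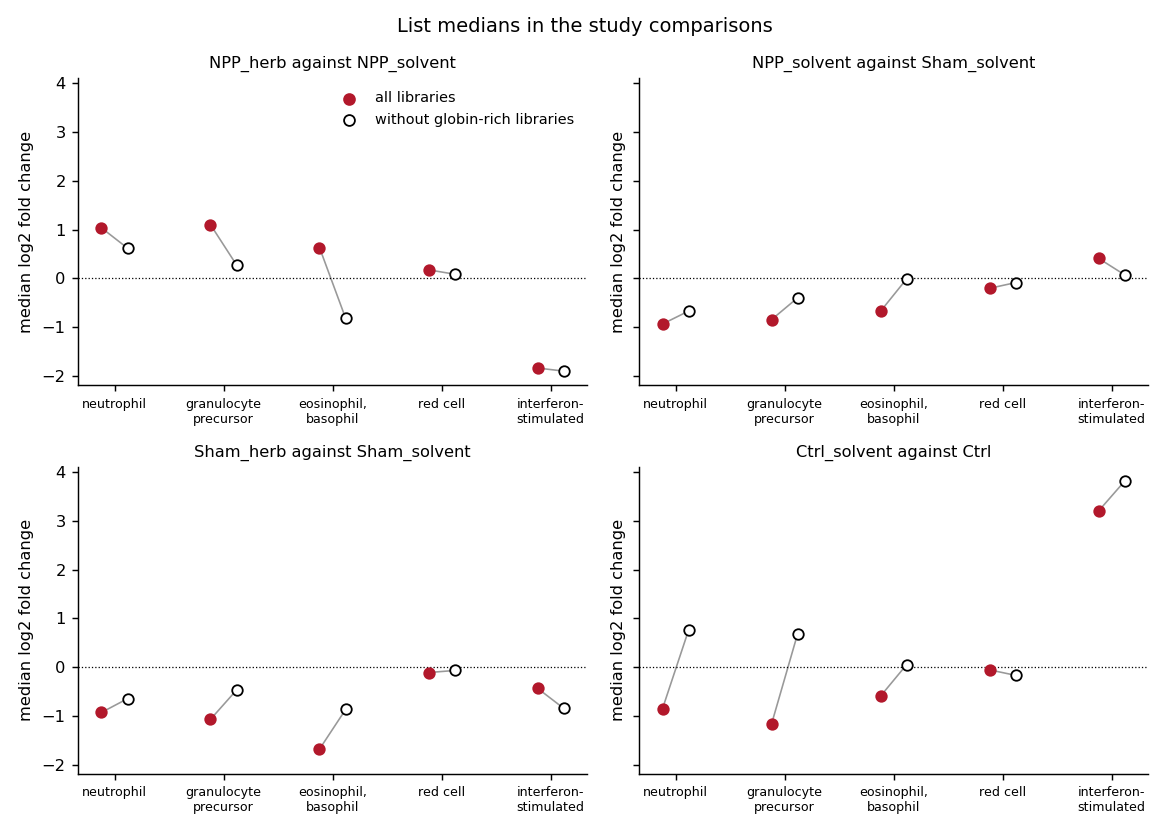
Median log2 fold change of 5 gene lists in 4 study comparisons, with all libraries (red) and without the 4 globin-rich libraries (open). The granulocyte precursor list and the eosinophil and basophil list were made after values were seen. The eosinophil median in NPP_herb against NPP_solvent crosses 0, as do the neutrophil, granulocyte precursor and eosinophil medians in Ctrl_solvent against Ctrl. The neutrophil and red cell lists each hold 4 genes called higher in the globin-rich libraries.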

How the data were processed

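Messenger RNA of 18 rat ganglion libraries was captured on beads, made into libraries with a KAPA stranded kit and read from both ends on a NovaSeq instrument, per the labels' protocols. The deposited table of raw read counts per gene (25678 genes) was used as the authors gave it, and a deposited FPKM table, scaled by the authors to gene length and library size, served for levels per length and for alternatives. The submitters' processing notes name HISAT2, DESeq2 and the build mRatBN7.2. The counter, its strand setting and the annotation were not given in the sources used here. Overlapping, antisense and near-identical genes are therefore uncertain. filterByExpr of edgeR 4.0.16 (R 4.3.3) left 16767 genes, and 8 globin genes (6 of the rule and 2 beta copies) were not tested. The filter was given the globin-rich and globin-poor groups, so a gene high in the globin-rich libraries alone could pass it. The 8911 genes removed held at most 0.0588% of any library's reads. TMM factors ran from 0.930 to 1.04. Fits were quasi-likelihood F tests with robust dispersion, Benjamini-Hochberg adjustment over 16759 genes and a threshold of 0.05. The SE is the log2 fold change divided by the square root of F. Between replicates of the same group, chi-square over its degrees of freedom was at least 12.8, so no library repeated another of its group. Libraries of different groups were not compared in this way.

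Genes were named by rule: the globins, up to 15 called genes per direction with a mean of at least 0.5 CPM in the globin-rich comparison and up to 10 in the slope, by smallest p, filled to 5 where fewer passed, and members of blood cell lists. The members and lists were chosen with earlier results of these data known. The fits were tested on simulated data. Some genes are not reported here. Alternatives used limma 3.58.1, DESeq2 1.42.0 and the settings of the closing section.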

Additional observations from a re-analysis of the deposited data

Results flagged for a closer look

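Cd79a, a chain of the B cell receptor, stood apart in 1 library. It had 4.48 CPM in Sham_solvent replicate 3, while the other 3 globin-rich libraries had 2.18 to 2.50 CPM. The gap to the nearest of the others exceeded Dixon's 95% critical value for a group of 4 samples. Of 26 items looked at in this way, 1 was flagged, and chance flags about 1 in 20 groups.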

How the results depend on the processing

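The comparison of globin-rich with globin-poor libraries called 24 genes. It called 54 with DESeq2, 4 with a filter of at least 1 CPM in 9 libraries, 7 with study groups as terms, 107 with the threshold at 0.01% (15 higher, 92 lower), 11 to 31 when 1 library was left out (11 without Sham_solvent replicate 3) and, in an alternative added after seeing the data, 8 without globin-poor libraries of high Isg15. Of the 24 genes, 4 passed with that filter, 7 with group terms, 5 at 0.01% and 10 to 24 when 1 library was left out. In alternatives added after seeing the data, 15 passed without the libraries almost free of Y-linked reads and 7 without those of high Isg15. The filter took genes such as Slc4a1, Epx, Mmp8 and Prg3 out of the test, because no globin-poor library reached 1 CPM for them. They were not tested there, which differs from failing. The slope over all libraries called 399, 33 with group terms, 174 to 441 when 1 library was left out and 12 without those of high Isg15, an added alternative. The globin-poor slope called 500, 0 with group terms (edgeR, 735 at an unadjusted p under 0.05), and 185 to 542 when 1 library was left out. No technical measure passed in any setting run. Scaling by RLE, no filter, FPKM values and dropping mitochondrial genes kept the counts within 1.5-fold. A threshold of 0.02% splits the libraries as 0.05% does, since no globin-poor library passed 0.0186%. It repeats the same fit, also among the single genes below, and cannot show how the result depends on the cut. Over single named genes and settings, 711 values kept their direction and side of the threshold, 126 lost a call, 10 gained one and none reversed. The causes were not tested.

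With the replicate block, the globin-rich comparison called 9 genes, all among the 24, the slope 338 and the globin-poor slope 477. Deviations of same-numbered libraries correlated at a median r of 0.001 (lowest -0.427) over 45 pairs, and 7 of 18 libraries correlated best with their own number, so the numbers were not taken as pairs. With 4 libraries in 1 arm, and levels of a few CPM, differences in rare blood cell genes may go undetected.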
